A study of Homo sapiens with 8 samples.

Results

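The genes described here build the centrosome, the kinetochore and the microtubule motors. They were taken by name from the authors' deposited table of m6A differences (prefixes such as CEP, CENP, KIF, TUB and DYN plus single names such as NIN, PCNT, MAP4 and NUMA1, with CENPF and antisense names left out). The rule uses no measured value, but it was written with earlier results of these data known. The rule took 44 of the 3114 gene names and 80 of the 4626 features. Among these names, CEP170P1, TUBBP10 and CENPBD1 (now CENPBD1P) are pseudogenes in RefSeq and CEP83-DT is a long non-coding RNA.

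N6-methyladenosine (m6A) is a methyl mark on adenosines of RNA, placed mainly by a METTL3-METTL14 complex and known to gather near stop codons and in long internal exons. The centrosome, a pair of centrioles in a protein matrix, nucleates microtubules through gamma-tubulin ring complexes. Kinesins and cytoplasmic dynein move along those microtubules, and kinetochores, built on centromeric chromatin, attach chromosomes to them in mitosis. Many of these genes code for long coiled-coil proteins.

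HL-60 is an established human promyelocytic leukaemia cell line, used here with the genotype label WT. One arm received decitabine, a deoxycytidine analogue that depletes DNA methyltransferases, dosed to 100 nM at the start and again after 24 hours and 48 hours, and the other received DMSO. RNA of both arms was collected at 72 hours, and the 8 libraries are an m6A immunoprecipitate and an input from each of 2 wells per arm, described only as duplicates. The deposited table has 1 ratio and 1 p-value per feature and no value per library, so no level per sample, replicate spread or depth stands behind any number here, and no test over samples could be run.

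Each feature is a window of RNA, 50 nt wide for 72 of the 80 member features, and 6 more were written as spliced blocks. The deposited log ratio was read as a natural log and is given below as a fold, the larger arm over the smaller. A positive sign is likely decitabine over DMSO, but the table does not state its direction, and how input was taken into account is also not given. A ratio may therefore hold a difference in RNA amount, and in bulk RNA fewer dividing cells and less RNA per cell cannot be told apart. No expression level was used here, so the cell line label was not checked against markers. The table holds only features with an absolute natural log ratio of 0.50 or more and a p-value of at most 0.0045, so a gene that is missing may be unchanged or untested.

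The members carried features of both signs. By the authors' deposited table, 45 member features were positive and 35 negative, a positive share of 56.3% (95% Wilson interval 45.3 to 66.6, counting of features only), beside 56.3% over all listed features. Without the stepped ratios defined below, 52.5% of the member features and 45.2% of all features were positive. When each gene was represented by its feature of lowest p-value (its leading feature), 24 genes were positive and 20 negative (54.5%), beside 58.9% over all gene names. The median positive member feature was 6.52-fold (quartiles 2.88 and 49.5) and the median negative one 3.79-fold (quartiles 2.46 and 8.48) per the authors' deposited table, against 10.1-fold and 3.95-fold over all features. Of the member features, 26.3% (21) were stepped, meaning that the fold fell on a multiple of 0.5 (within 1e-08 of its size), beside 30.6% over all features. Among positive features alone, 31.1% of the members and 44.3% over the table were stepped. Among negative features alone the difference ran the other way, with 7 of the 35 member features stepped, beside 13.1% over the table. With stepped ratios left out, the median positive feature was 3.28-fold for the members and 3.33-fold over the table. Stepped ratios include most of the very large ones, so the large folds below are marked where they are stepped.

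**Figure D1:**
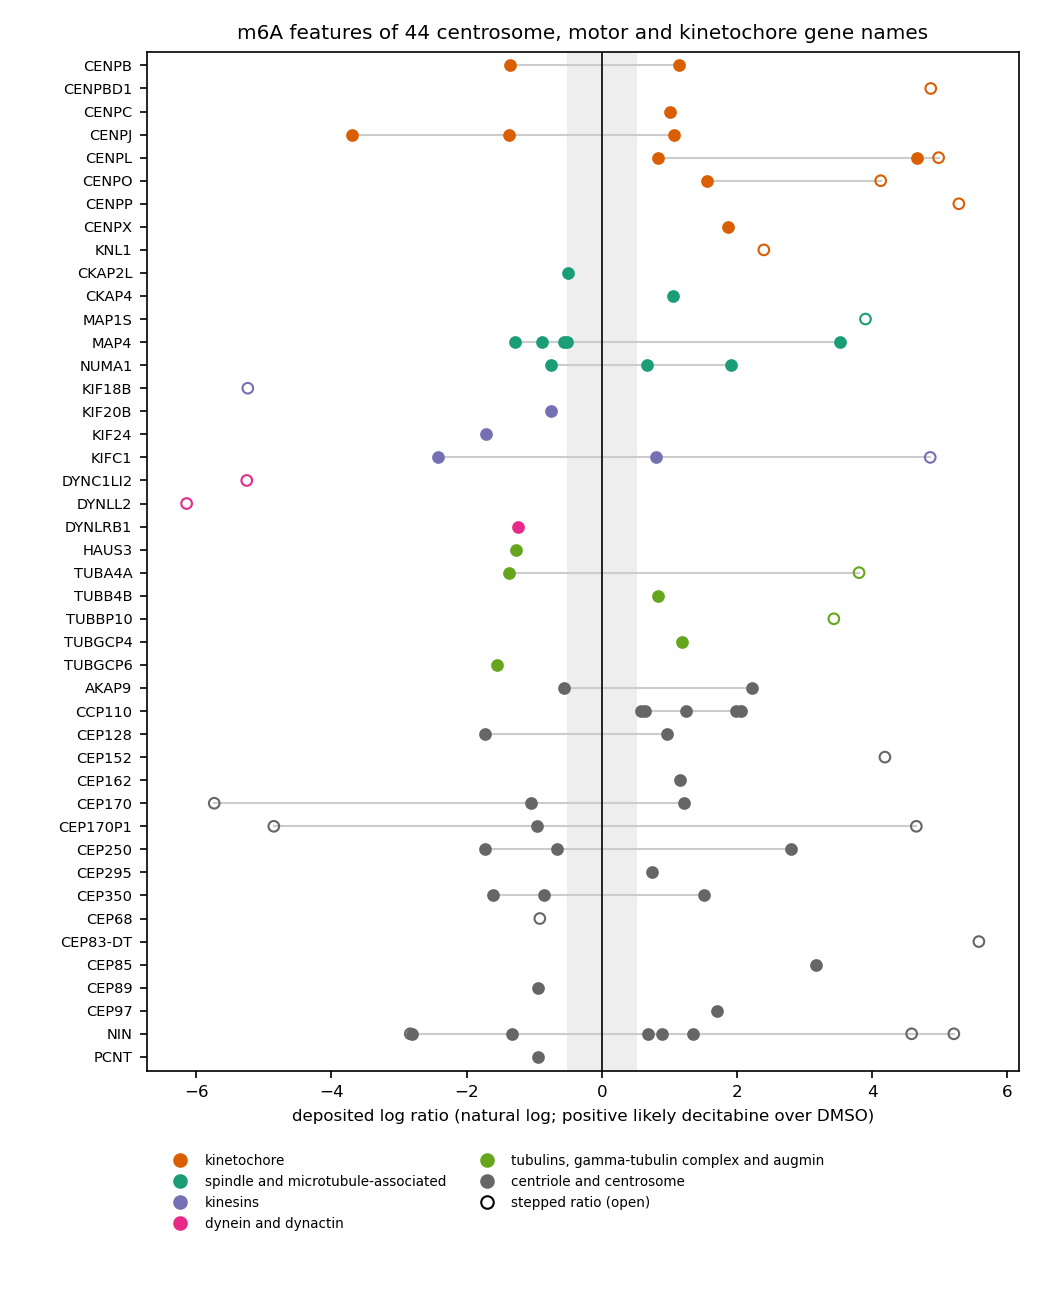
Each point is 1 feature of the gene named on the left, placed by its deposited log ratio (natural log, x axis) and coloured by role, with open points for stepped ratios and a grey line joining the features of a gene. The 3 dynein features all lie left of 0, 12 of the 15 kinetochore features lie right of it, and 13 genes have points on both sides. The grey band covers the range in which the table lists nothing.

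Kinetochore names were mostly positive. Of 15 features under 9 names, 12 were positive and 3 negative (80% positive, beside 56.3% over all listed features). The leading feature was positive in 7 names and negative in 2 (77.8% positive), beside 58.9% over all gene names. The Wilson interval was 54.81 to 92.95 for the features and 45.26 to 93.68 for the names. Each interval includes the share over the table. Of the positive ones, 5 were stepped (41.7%), beside 44.3% of the positive features over the table. CENPJ holds 2 of the 3 negative features, and its product CPAP is a centriole elongation protein and not a kinetochore protein. Leaving out CENPJ and the pseudogene CENPBD1, 10 of 11 features were positive. No test of this split was run. It was noticed after the values were seen, and these names were left out with the values known.

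The constitutive centromere network, the inner layer that stays on centromeres through the cell cycle, supplied CENPC, CENPL, CENPO, CENPP and CENPX. The last of these is described further below. CENPL had 3 positive features per the authors' deposited table, at 146-fold (chromosome 1, 173803035 to 173803084, minus strand, p = 8.7e-08, stepped), 106-fold and 2.30-fold. The 146-fold and 2.30-fold windows start 100 nt apart, so neighbouring stretches of this RNA shared a sign but differed widely in size. CENPO had positive features of 62-fold (chromosome 2, 24819643 to 24819692, p = 5.9e-06, stepped) and 4.76-fold per the authors' deposited table, 248 nt apart. Both lie inside the span of ADCY3, a gene on the opposite strand, and whether reads were counted by strand is not given. CENPP stood at a positive 197-fold (chromosome 9, 92613103 to 92613152, p = 0.00089, stepped) per the authors' deposited table. CENPC, which binds the centromeric histone variant, had a single positive feature of 2.74-fold (p = 8.8e-05) per the authors' deposited table.

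The remaining kinetochore names followed the same direction, apart from CENPB and CENPJ. The authors' deposited table gave KNL1, the outer kinetochore scaffold that recruits the BUB kinases, a positive 11-fold feature (chromosome 15, 40622347 to 40622396, p = 0.0040, stepped). CENPX, a histone-fold protein, had a positive 6.52-fold feature (p = 0.0014), 147 nt short of its annotated 3' end, per the authors' deposited table. CENPB, which binds a sequence motif in alpha-satellite DNA, was led by a negative 3.91-fold feature per the authors' deposited table (chromosome 20, 3785246 to 3785395, p = 4.7e-07). That window had the smallest p-value of any negative member feature, and a positive 3.13-fold feature starts 399 nt from it. The pseudogene CENPBD1 carried a positive 130-fold feature (p = 4.1e-06, stepped) per the authors' deposited table. CENPJ was mixed per the authors' deposited table, with a positive 2.92-fold feature beside negative ones of 40.2-fold and 3.96-fold.

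Motor genes leaned the other way. Of 9 features of kinesins and dynein subunits, 7 were negative and 2 positive (22.2% positive, beside 56.3% over all listed features). Of the negative ones, 3 were stepped (42.9%), beside 13.1% of the negative features over the table. By lowest p-value the leading feature was negative in all 7 genes, beside 58.9% positive over all gene names. KIFC1 had 2 of its 3 features positive, among them its largest ratio, so this count depends on how the leading feature is chosen. The DYNLRB1 value is uncertain as to gene, as given below. The motor split also came to notice only after the values were seen and was not tested.

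All 3 dynein features were negative, and no dynactin gene was listed. DYNLL2, a light chain shared by dynein and myosin V, had the largest ratio of any member in the authors' deposited table, a negative 465-fold (chromosome 17, 58089730 to 58089779, p = 0.00016, stepped), 17th among the negative features of the whole table. DYNC1LI2, a light intermediate chain that links dynein to cargo, had a negative 191-fold feature (chromosome 16, 66721942 to 66721991, p = 0.00020, stepped), 1049 nt short of its annotated 3' end, per the authors' deposited table. DYNLRB1, a roadblock light chain, stood at a negative 3.43-fold (chromosome 20, 34534780 to 34540614, spliced, p = 9.9e-05) per the authors' deposited table. A window shifted by 15 nt was listed a second time under the upstream neighbour ITCH, at a negative 3.93-fold, outside the RefSeq span of ITCH. The value of DYNLRB1 is therefore uncertain as to gene.

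Among the kinesins, KIF18B, which acts at the ends of astral microtubules, had a negative 188-fold feature (chromosome 17, 44933966 to 44934015, p = 0.0039, stepped) per the authors' deposited table. KIF24, a kinesin-13 that works with CCP110 at the centriole, was at a negative 5.58-fold (p = 0.0014), and the cytokinesis kinesin KIF20B at a negative 2.11-fold (p = 0.0015), per the authors' deposited table. KIFC1, the minus-end motor that gathers extra centrosomes into poles, was the kinesin with several features. From its 5' to its 3' side they ran from a positive 129-fold (p = 0.0019, stepped) over a positive 2.24-fold to a negative 11.3-fold (chromosome 6, 33406209 to 33406258, p = 0.00026) per the authors' deposited table, over 2181 nt.

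**Figure D2:**
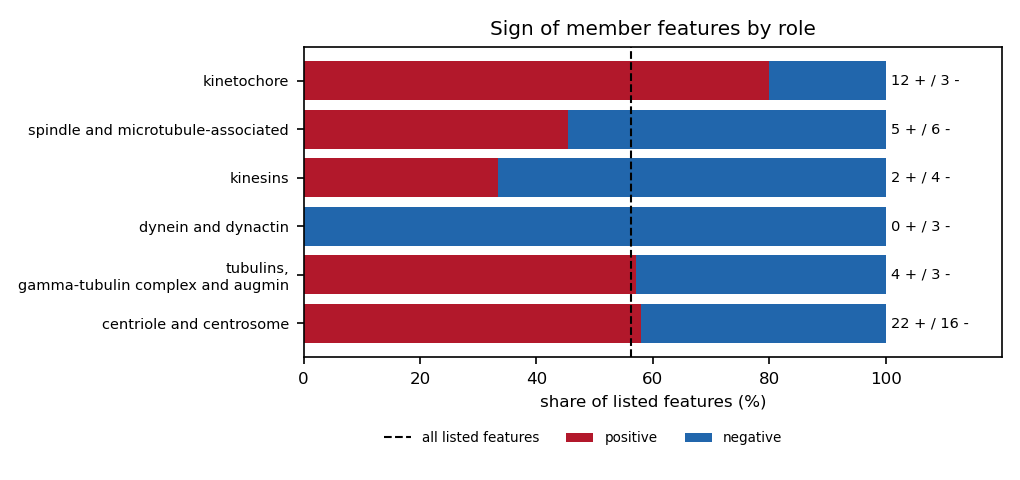
Bars show, for each role, the share of listed features (%) that were positive (red) or negative (blue), with the counts at the right, and the dashed line marks the 56.3% positive over all listed features. The kinetochore bar (12 positive, 3 negative) lies above the line and the kinesin (2 and 4) and dynein (0 and 3) bars below it, each from few features, while the centrosome bar (22 and 16) lies close to it.

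Spindle and microtubule-associated genes held 5 positive and 6 negative features (45.5% positive, beside 56.3% over all listed features). Of the 11, 1 was stepped (9.1%), beside 30.6% over all features. MAP4, a widely expressed protein that stabilises microtubules, had 5 features per the authors' deposited table, of which 4 were negative between 1.68-fold and 3.60-fold. By the authors' deposited table its leading window was the negative 3.60-fold one (chromosome 3, 47917011 to 47917060, p = 0.00014), and the remaining feature, nearest to the 3' end, was a positive 33.8-fold (p = 0.0035) 400 nt from a negative 2.41-fold window. The spindle pole protein NUMA1, which anchors dynein, had a negative 2.13-fold window (p = 0.00046) that starts 200 nt from a positive 1.97-fold window per the authors' deposited table. The remaining NUMA1 feature, a positive 6.81-fold, lies inside the span of the antisense gene NUMA1-AS1. MAP1S was at a positive 49.5-fold (p = 0.0033, stepped) and the mitotic spindle protein CKAP2L at a negative 1.65-fold (p = 0.0022), the smallest ratio of any member, per the authors' deposited table. CKAP4 has a cytoskeletal name but codes for a membrane protein of the endoplasmic reticulum, and was at a positive 2.88-fold per the authors' deposited table.

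Tubulins and the complexes that nucleate microtubules were split, with 4 positive and 3 negative features (57.1% positive, beside 56.3% over all listed features). TUBA4A, an alpha-tubulin, had a negative 3.96-fold feature (chromosome 2, 219250900 to 219250998, p = 5.4e-06) and a positive 45-fold one (p = 5.5e-05, stepped) per the authors' deposited table. The latter lies inside the span of STK16 on the opposite strand. The beta-tubulin TUBB4B had a positive 2.31-fold feature (p = 0.00058) per the authors' deposited table, and since tubulin genes are near copies of one another, how reads were shared among them bears on these values and is not given. Of the gamma-tubulin complex, TUBGCP4 was at a positive 3.28-fold (p = 0.0022) and TUBGCP6 at a negative 4.73-fold (p = 0.0037) per the authors' deposited table. The TUBGCP4 window lies 399 nt short of its annotated 3' end, inside the span of TP53BP1 on the opposite strand. HAUS3, a subunit of the augmin complex that branches new microtubules from old ones, had a negative 3.58-fold feature (p = 0.00070) per the authors' deposited table, inside the span of POLN on the same strand. The beta-tubulin pseudogene TUBBP10 was at a positive 31-fold (p = 1.6e-06, stepped) per the authors' deposited table, and a window 10 nt away was listed under SCP2, a gene on the same strand whose span contains it, also at 31-fold.

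The centriole and centrosome supplied the largest group, with 22 positive and 16 negative features under 17 names. Of its features 57.9% were positive, beside 56.3% over all listed features. Its leading features were positive in 12 genes and negative in 5 (70.6% positive), beside 58.9% positive over all gene names. Without the pseudogene CEP170P1 and the non-coding CEP83-DT the counts were 10 and 5 (66.7%). CEP128 counts as positive by a narrow margin in p-value. In CEP128, CEP350 and CEP170P1 the leading feature was positive although a negative one had the larger ratio. In CEP250 the leading feature was negative although a positive one had the larger ratio. NIN, CCP110 and the CEP170 pair held 19 of the 38 features of the whole group.

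NIN codes for ninein, which anchors microtubules at the mother centriole. It had 8 features in the authors' deposited table, 5 positive and 3 negative, and only 1 gene name in the table had more. The smallest p-value of any member in the authors' deposited table belonged to its positive 183-fold window (chromosome 14, 50758555 to 50758604, minus strand, p = 2.0e-08, stepped), which ranked 76th by p-value among all 4626 features. Within 1948 nt (50756657 to 50758604) the authors' deposited table listed 3 positive windows, of 183-fold, 98-fold (p = 2.0e-07, stepped) and 3.87-fold, and 3 negative windows, of 17-fold (stepped), 16.6-fold and 3.79-fold. The positive 98-fold and the negative 16.6-fold windows start 150 nt apart. Towards the 5' side lay weaker positive windows of 1.98-fold and 2.45-fold per the authors' deposited table.

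CCP110, which caps the growing end of the centriole and keeps cilia from forming, had 5 windows, all of them positive, where NIN and MAP4 held both signs. They measured, from 5' to 3', 1.79-fold, 7.83-fold, 1.90-fold, 3.46-fold and 7.27-fold per the authors' deposited table, over 1200 nt (chromosome 16, 19536144 to 19537343, plus strand). Their p-values ran from 0.00068 to 0.0019, and none of these ratios was stepped. CEP97, the partner of CCP110, was also positive, at 5.49-fold (p = 0.0028) per the authors' deposited table.

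CEP170, a protein of the subdistal appendages, had negative windows of 309-fold (chromosome 1, 243164824 to 243164873, p = 0.00075, stepped) and 2.85-fold, 449 nt apart, and a positive one of 3.36-fold per the authors' deposited table. Its pseudogene CEP170P1 on chromosome 4 had a positive 105-fold feature (p = 8.8e-07, stepped) beside negative ones of 128-fold (p = 0.00020, stepped) and 2.62-fold per the authors' deposited table. The positive 105-fold and negative 2.62-fold windows of CEP170P1 start 149 nt apart. All 3 of its windows lie just before the start of the RefSeq span, and reads may be shared with CEP170, so both sets of values are uncertain.

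Large scaffold and linker genes were mixed within themselves. CEP250, which holds the centrioles together, had a negative 1.94-fold, a positive 16.3-fold and a negative 5.62-fold window in that order from 5' to 3' per the authors' deposited table, with starts 250 nt and 299 nt apart. CEP350 was led by a positive 4.53-fold feature (p = 8.3e-05) between negative ones of 4.97-fold and 2.36-fold per the authors' deposited table. AKAP9, which anchors protein kinase A at the Golgi and centrosome, had a positive 9.28-fold window (chromosome 7, 92097212 to 92097261, p = 8.6e-05) and, 100 nt away, a negative 1.74-fold window (p = 0.00077) per the authors' deposited table. CEP128, another subdistal appendage protein, had a negative 5.67-fold and a positive 2.61-fold feature per the authors' deposited table.

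The other centrosome names had 1 feature each. Positive ones per the authors' deposited table were CEP152, which recruits the kinase PLK4 for centriole duplication (66-fold, p = 0.00045, stepped), CEP85 (23.9-fold), CEP162 (3.21-fold) and CEP295 (2.09-fold). The non-coding CEP83-DT, which is transcribed away from CEP83, had the largest positive member ratio per the authors' deposited table, 265-fold (p = 0.00052, stepped). Negative ones per the authors' deposited table were all small, with the pericentriolar scaffold PCNT at 2.58-fold (p = 0.00078), the distal appendage protein CEP89 at 2.56-fold and the linker protein CEP68 at 2.50-fold.

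**Figure D3:**
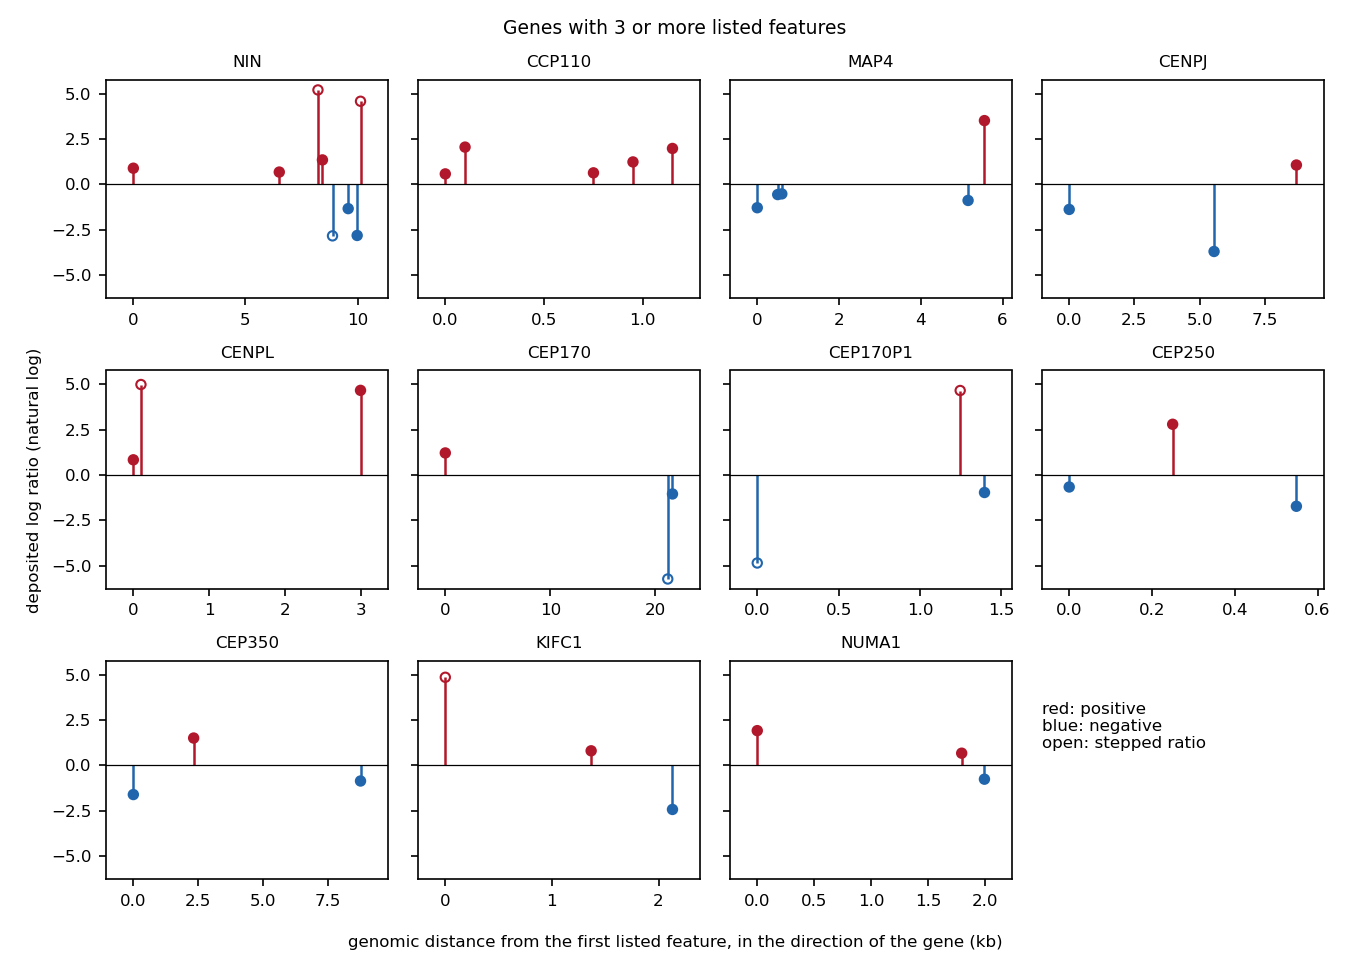
Each panel is a gene with 3 or more listed features, plotted by genomic distance in the direction of the gene from its first listed feature (kb, x axis) and by deposited log ratio (natural log, y axis), red for positive, blue for negative and open for stepped ratios. CCP110 and CENPL have red points only, while the last 1948 nt of NIN, from 5' to 3', hold 2 red, 3 blue and 1 red point.

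Opposite signs inside 1 gene were common. Of the 16 members with more than 1 feature, 13 had both signs and 3 (CCP110, CENPL and CENPO) only positive ones, and no member had several features that were all negative. That is 81.3%, beside 58.4% of all gene names with more than 1 feature, but the members held 3.25 features per such gene against 2.59 over the table, and the difference was not tested. With p-values under 0.001 only, 5 of 10 such members had both signs (50%). The share over all gene names was not computed at that limit, so this value has no counterpart in the 58.4%. Neighbouring features of a member had the same sign in 19 of 36 pairs (52.8%), beside 53.3% of 1502 pairs over the table. Of the 19 member pairs whose starts lay at most 500 nt apart, 10 had the same sign and 9 opposite signs. That is 52.6% with the same sign, beside 53.4% of the 620 such pairs over the table.

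Large ratios did not always come with small p-values. Positive member features with p under 0.001 had a median of 20.1-fold (22 features) and the other positive ones 3.87-fold (23 features) per the authors' deposited table. In the authors' deposited table CEP83-DT at 265-fold (p = 0.00052), CENPP at 197-fold (p = 0.00089) and KIF18B at 188-fold (p = 0.0039) had weaker p-values than CENPB at 3.91-fold (p = 4.7e-07). Of the 8 member features with the smallest p-values, 6 were stepped and positive, and the 2 others were the negative windows of CENPB and TUBA4A. The same count was not made over the whole table, so it cannot be called particular to the members. Among the 22 member features of 20-fold or more, 16 were positive and 6 negative (72.7% positive), beside 77.6% positive among the 1561 features of that size over the table.

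**Figure D4:**
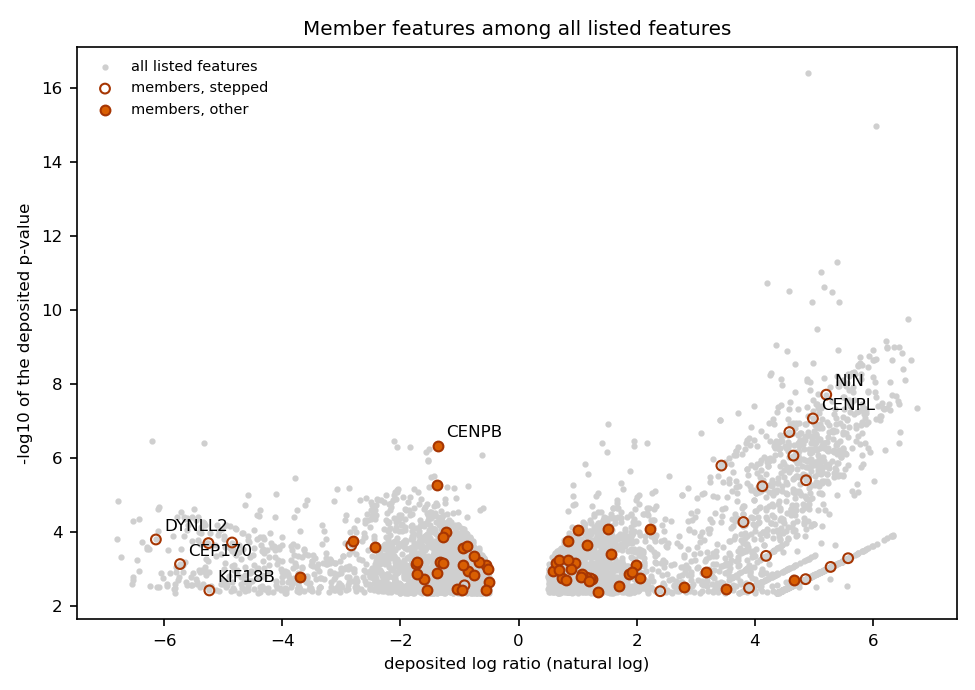
Grey points are all listed features and orange points the members (open where stepped), by deposited log ratio (natural log, x axis) and −log10 of the deposited p-value (y axis). 1 grey feature with a log ratio above 20 lies outside the axis. The members spread over the same cloud as the table, with NIN and CENPL highest among them and DYNLL2 farthest to the left.

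Member features lay mostly in the part of the gene nearer to its 3' end, as did those of the whole table. Of the 77 that lay inside the RefSeq span of their gene, 56 (72.7%) were nearer to the 3' end than to the 5' end, beside 74.2% of all 4309 listed features inside a span. Within 2000 nt of the 3' end lay 14 (18.2%), beside 31.0% over the table, and in the first 10% of the span lay 0, beside 6.64%. The median distance to the 3' end was 14499 nt for the members and 4023 nt over the table, and the difference was not tested. Of the 44 positive features inside a span, 10 lay within 2000 nt of the end, and of the 33 negative ones, 4. Distances are genomic and include introns. Exons and introns were not assigned, and no sequence under the windows was read.

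Other genes of the same machinery, whose names the rule does not take, also carried both signs. Of a list of 93 symbols (mitotic kinases, centriole, spindle, adaptor and microtubule-end genes), 16 genes were listed with 23 features. Of these features, 12 were positive and 11 negative (52.2% positive, beside 56.3% over all listed features). By leading feature 9 genes were positive and 7 negative (56.3% positive, beside 58.9% over all gene names). Of the 5 genes with more than 1 feature, 2 held both signs (40%), beside 58.4% over all such gene names. The difference from the members was not tested. The largest positive ratios of the list per the authors' deposited table were those of NEK6, a mitotic kinase (310-fold, p = 5.9e-08, stepped), the dynein regulator NDE1 (138.5-fold, p = 9.1e-09, stepped) and the plus-end protein CLIP2 (79-fold, stepped). The largest negative ones were those of CAMSAP1, which binds microtubule minus ends (113-fold, p = 0.00035), the distal appendage protein SCLT1 (76-fold, p = 0.00029, stepped) and ALMS1, a centrosome and basal body protein (27-fold, p = 0.0019, stepped), per the authors' deposited table. Motor adaptors and regulators were split: BICD1 and BICD2 were at negative 4.58-fold and 1.79-fold, and TRAK2 at a positive 33.2-fold (p = 2.3e-05), like NDE1 on the positive side, per the authors' deposited table.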

How the data were processed

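MeRIP-seq of HL-60 cells gave 8 libraries in 4 groups of 2 (m6A and input, decitabine and DMSO), grouped by title. The submitters' processing notes name STAR 2.7.3a and the build hg38. The sources used here do not say how features were scored, normalised or tested. The authors' deposited values are a log ratio, read as a natural log because the exponential was a multiple of 0.5 for 1415 features, and a p-value per the file headers, not marked as adjusted. The authors' p-values were copied and not recomputed.

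Features were matched to RefSeq gene spans (GRCh38.p14) by symbol (42 names) or synonym (2), on the same chromosome. Gene-level counts and most feature-level values over the whole table leave out 10 chromosome Y copies. The copies were kept in the total of 4626 features, the 56.3% positive, the 30.6% stepped and the ranks. Ratios were also written as whole-number fractions in lowest terms (relative tolerance 1e-09, or 1e-08 for denominators up to 10, and denominators up to 1000), a step tested on simulated data. Members, roles and the list of other genes were chosen with earlier results of these data known. Named were, per role, the 4 smallest p-values, the largest ratio of each sign, and genes with 3 or more features or both signs. The other members were then named too. No test was run. The alternatives removed stepped ratios, weak p-values, small folds, doubtful names, near windows or shared positions, or changed the leading feature or log base. Intervals on medians are order-statistic intervals. Tables were handled in Python 3.11.15 with numpy 2.4.6 and pandas 2.3.3, intervals came from scipy 1.17.1, and plots from matplotlib 3.10.9.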

Additional observations from a re-analysis of the deposited data

How the results depend on the processing

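Of 43 values recomputed under other settings, 39 stayed inside the 95% interval of the reported value (Wilson for shares, order statistics for medians) and 4 moved outside it. With p-values under 0.001 the stepped share of member features was 37.2% and the share of members with both signs 50%. Without simple fractions (denominator 10 or less, a setting chosen after seeing the data, as was leaving out shared positions) the median positive fold was 3.02. This median also varied widely inside its interval (3.28 to 23.9), from 3.28 without stepped ratios to 20.1 with p-values under 0.001, against 6.52 as reported. Read as log2, the median negative fold was 2.52. The positive share of member features ran from 51.0% to 57.7% and that of genes by leading feature from 48.5% to 59.1% over the settings. No paired analysis was possible because the table has no value per library, and leaving out a replicate could not be done for the same reason. Depth and signal per arm are unknown here, which limits every large ratio.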

Other observations

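Nearly every deposited ratio of a member was a whole-number fraction. In lowest terms 77 of the 80 member ratios in the authors' deposited table had a denominator of at most 1000, as did 96.4% of all features. Of the 22 member features of 20-fold or more, 17 had a denominator of 1 and 5 one between 2 and 10. Of the 52 under 8-fold, 3 had a denominator of 10 or less, and their median denominator was 116. DYNLL2 was 465 to 1, CEP170 309 to 1 and MAP4 135 to 4 in the authors' deposited table, whereas the negative CENPB window was 43 to 11, the leading MAP4 window 292 to 81 and the leading CCP110 window 907 to 478. The origin of these whole numbers was not tested.

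Of the 80 member features, 3 shared both ratio and p-value with a feature of an unrelated gene. How often this occurs over all listed features was not counted, so it cannot be called particular to the members. In the authors' deposited table CENPP and CDKN2C (chromosome 1, 50969509 to 50969558) both stood at a positive 197-fold with p = 0.00089. KIFC1 and NOL10 (chromosome 2, 10589733 to 10600883) both stood at a positive 129-fold with p = 0.0019, and CEP152 and SCAND2P (chromosome 15, 84634531 to 84634580) at a positive 66-fold with p = 0.00045, in the authors' deposited table. In these 3 cases the p-values were equal to a relative tolerance of 1e-06 although the windows lie on different chromosomes or far apart. By contrast TUBBP10 and SCP2, whose windows overlap by all but 10 nt and share the ratio of 31-fold, differed slightly in p-value (1.6e-06 and 1.5e-06) in the authors' deposited table.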
